A study of Mus musculus with 12 samples.

Results

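Elf3, Elf5, Ehf and Spdef are the ETS-family transcription factors whose expression is largely restricted to epithelia, and their levels were read in sorted epithelial cells of the embryonic mouse salivary gland. They were chosen as the 4 epithelial members of the family among the 43280 genes of the deposited count matrix. The choice was made with earlier results of these data known, so shares of members called are not those of genes picked blind. All 4 were among the 17030 genes that passed the filter on low counts. Submandibular glands were taken at embryonic day 15 from mice of the strain Tg(KRT5-Venus)1Sgkd, in which the fluorescent protein Venus is driven by a keratin 5 promoter. E-cadherin-positive cells were split by flow cytometry on Kit, a receptor tyrosine kinase of progenitor cells, and on Venus. This gave 4 populations, Kit+ K5+ and Kit+ K5- on one side and Kit- K5+ and Kit- K5- on the other, with 3 libraries of total RNA each. K5 status here is therefore fluorescence from a transgene and not keratin 5 protein, and all populations carry the transgene. The design asks how the transcriptome differs with each marker in the presence and absence of the other.

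ETS factors bind DNA through a conserved domain that recognises a GGAA core. ELF3, EHF and ELF5 form one subgroup, and in simple epithelia ELF3 and EHF regulate genes of barrier function and inflammation. ELF5 directs the alveolar secretory fate of luminal cells in the mammary gland downstream of prolactin. SPDEF belongs to a separate branch of the family, favours a GGAT core, and drives goblet and mucous cell differentiation in airway and intestine.

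The starts of the genes are shown because mean levels of the members differed in pattern. Elf3, Elf5 and Ehf were lowest in Kit- K5- cells, and Spdef was higher in both Kit+ populations than in both Kit- populations. Differences between members were not tested. RefSeq start regions on GRCm38.p6, from 250 bases before to 50 bases after the start, matched 3 of the 4 members, with 2 starts for Elf5. Each is written 5′ to 3′ on the strand of its gene, and the capitals mark GGAA or its reverse complement TTCC. The regions are chr1:135258423-135258722 (minus strand) for Elf3, chr2:103411848-103412147 and chr2:103423818-103424117 (plus strand) for the first and second start of Elf5, and chr17:27728902-27729201 (minus strand) for Spdef.
Elf3: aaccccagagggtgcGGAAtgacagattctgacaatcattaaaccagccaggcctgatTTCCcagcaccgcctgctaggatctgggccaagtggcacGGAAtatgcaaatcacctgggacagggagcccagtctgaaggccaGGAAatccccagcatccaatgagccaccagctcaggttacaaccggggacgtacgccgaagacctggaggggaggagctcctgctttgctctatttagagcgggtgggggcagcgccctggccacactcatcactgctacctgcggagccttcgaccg
Elf5, first start: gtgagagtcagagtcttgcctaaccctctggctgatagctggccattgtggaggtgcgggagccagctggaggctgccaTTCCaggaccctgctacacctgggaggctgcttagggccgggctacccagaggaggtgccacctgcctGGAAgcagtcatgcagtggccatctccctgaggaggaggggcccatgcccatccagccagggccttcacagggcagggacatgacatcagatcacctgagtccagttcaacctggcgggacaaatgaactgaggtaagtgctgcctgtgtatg
Elf5, second start: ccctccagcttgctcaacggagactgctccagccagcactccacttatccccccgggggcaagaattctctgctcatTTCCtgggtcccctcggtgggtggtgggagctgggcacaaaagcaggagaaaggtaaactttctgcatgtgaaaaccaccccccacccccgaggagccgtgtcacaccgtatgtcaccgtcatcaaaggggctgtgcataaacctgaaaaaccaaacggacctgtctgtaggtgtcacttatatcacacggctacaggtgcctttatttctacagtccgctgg
Spdef: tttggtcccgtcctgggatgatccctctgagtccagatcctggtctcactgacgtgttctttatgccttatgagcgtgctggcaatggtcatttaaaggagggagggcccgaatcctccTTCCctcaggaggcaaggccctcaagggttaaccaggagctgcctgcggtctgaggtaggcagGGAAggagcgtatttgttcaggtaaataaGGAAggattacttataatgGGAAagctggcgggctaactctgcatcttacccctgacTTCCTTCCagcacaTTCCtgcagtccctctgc
On both strands GGAA was found 4 times at Elf3, 2 times and 1 time at the 2 starts of Elf5, and 7 times at Spdef. Of 32851 mouse start regions of the same length, 96.0% held at least 1 GGAA, with a median of 3, and 8.0% held 7 or more. The longer word CGGAAG, which overlaps GGAA, was found 0 times in the 4 regions and in 16.9% of all regions. These are matches of letters and not sites shown to be bound.

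The libraries held 5589037 to 13724364 counts each. The labels do not say that replicate libraries came from separate litters or sorts, so p-values measure the spread between these libraries, which may be partly technical. Levels are given as CPM, the counts of a gene relative to the library size after TMM scaling. The libraries numbered 1 to 4 in the titles cover each population once, as do 5 to 8 and 9 to 12, and these sets are called runs 1, 2 and 3. Replicate numbers give the run. The gate genes followed the sort for Kit, with a mean of 319 CPM in the Kit+ K5+ and 343 CPM in the Kit+ K5- libraries, and of 22.4 CPM in the Kit- K5+ and 14.7 CPM in the Kit- K5- libraries. Krt5 averaged 5.25, 2.43, 18.9 and 4.20 CPM in the same order and passed no K5 comparison. Cdh1, which encodes E-cadherin, averaged 799.9, 705, 587 and 173 CPM, so the gate gene for epithelium was lowest in Kit- K5- cells. The 18 general epithelial genes summed to 441 to 565 CPM in the Kit- K5- libraries, against 1451 to 3235 CPM in the other 9. The 8 mesenchymal markers, such as Col1a1 and Twist1, summed to 8796 to 14968 CPM in Kit- K5- libraries, against 123 to 467 CPM in the others, and 0 of the 8 were at 0 throughout Kit- K5-. Other cell types also had higher sums there: 156 to 796 CPM of leukocyte and macrophage markers (44.8 to 316 elsewhere), 91.2 to 760 CPM of erythroid markers (10.95 to 24.8 elsewhere), 51.9 to 132 CPM of neuron markers (2.12 to 9.56 elsewhere) and 45.3 to 56.1 CPM of endothelial markers (5.44 to 22.4 elsewhere). The 8 mast cell markers, which include Kit, summed to 5181 CPM in Kit+ K5- replicate 1, against 399 to 503 CPM in the other Kit+ K5- libraries. In such bulk samples, fewer cells of a type and less RNA per cell cannot be told apart.

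Ehf, which encodes an ETS factor of glandular and airway epithelium, was the most abundant member per length in every population. Its mean level was 73.9 and 56.1 CPM per kb of exon in the Kit+ K5+ and Kit+ K5- populations, and 65.9 and 19.1 CPM per kb in the Kit- K5+ and Kit- K5- populations. Spdef came next in Kit+ cells, at 18.2 and 15.1 CPM per kb in Kit+ K5+ and Kit+ K5- cells, and was close to the bottom in Kit- cells, at 1.21 and 1.79 CPM per kb in Kit- K5+ and Kit- K5- cells. Elf3 stood at 14.1, 14.8, 9.25 and 2.72 CPM per kb and Elf5 at 7.98, 11.6, 6.95 and 1.33 CPM per kb in the same order of populations. Elf3 stood above Elf5 in mean level per length in all 4 populations, and the order of Spdef among the members changed with Kit. The place of Spdef in Kit+ cells rests on runs 1 and 2. In run 3 it was the lowest member, at 3.48 and 4.04 CPM per kb in Kit+ K5+ and Kit+ K5- cells, where Elf5 had 8.31 and 6.05 CPM per kb.

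**Figure D1:**
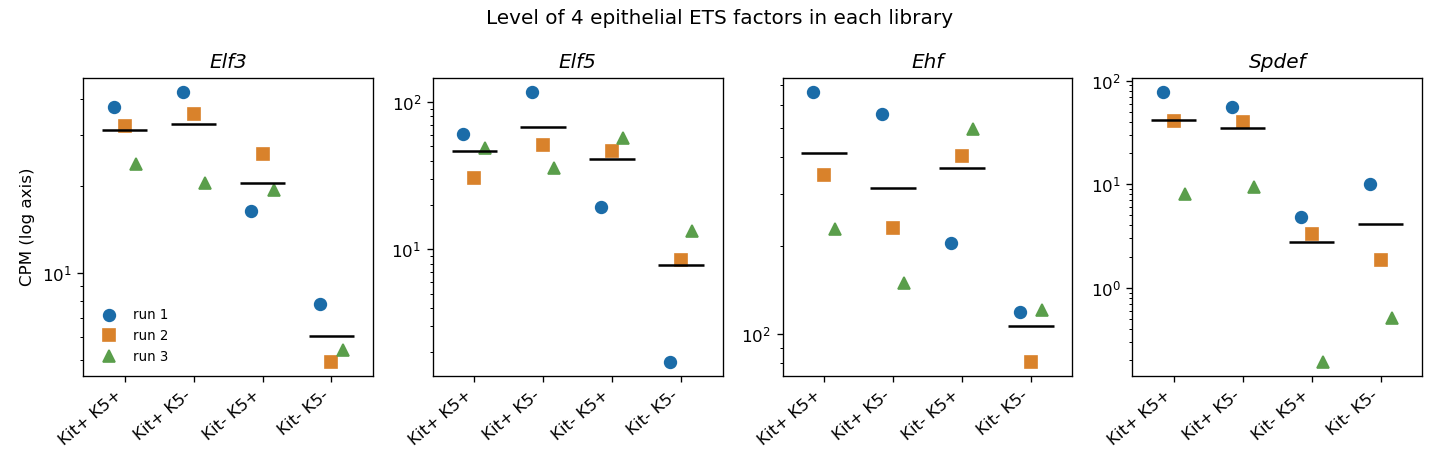
Level of each member in every library, in CPM on a log axis, for the 4 sorted populations. Symbols mark the 3 runs and black bars the mean of 3 libraries. Elf3, Elf5 and Ehf lie lowest in Kit- K5- cells. Spdef lies at 8.01 to 77.7 CPM in Kit+ libraries and at 0.191 to 10.03 CPM in Kit- libraries, with run 3 lowest in each population.

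Elf3 (ENSMUSG00000003051.13; chromosome 1, 135253575 to 135258568, minus strand, GRCm38) encodes a factor active in many simple epithelia. It had 37.5, 32.2 and 23.9 CPM in Kit+ K5+ libraries and 42.4, 35.5 and 20.5 CPM in Kit+ K5- libraries. It had 16.4, 25.8 and 19.3 CPM in Kit- K5+ libraries, and 7.80, 4.90 and 5.41 CPM in Kit- K5- libraries. The Kit- K5- libraries lay below all 9 others, while the other 3 populations overlapped. The mean was 31.2 ± 6.87 CPM in the Kit+ K5+ libraries and 32.8 ± 11.2 CPM in the Kit+ K5- libraries, and 20.5 ± 4.83 CPM in the Kit- K5+ libraries and 6.04 ± 1.55 CPM in the Kit- K5- libraries (SD, n = 3). In this order of levels Kit- K5- stood apart beyond the spread and the others did not. An antisense gene, Gm26642, overlaps Elf3 at a mean of 0.642 CPM, and as the strand setting of the counting is not known from the labels, reads of the pair cannot be told apart.

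Ehf (ENSMUSG00000012350.15; chromosome 2, 103263433 to 103303278, minus strand) had 664, 346 and 227 CPM in Kit+ K5+ libraries and 560, 228 and 149 CPM in Kit+ K5- libraries. It had 203, 402 and 496 CPM in Kit- K5+ libraries, and 119, 80.4 and 121 CPM in Kit- K5- libraries. Kit- K5- was again below all other libraries, and within each of the other 3 populations the highest library was over 2 times the lowest. The mean was 412 ± 226 CPM in the Kit+ K5+ libraries and 313 ± 218 CPM in the Kit+ K5- libraries. It was 367 ± 150 CPM in the Kit- K5+ libraries and 107 ± 22.8 CPM in the Kit- K5- libraries (SD, n = 3), and the first 3 of these did not separate.

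Elf5 (ENSMUSG00000027186.14; chromosome 2, 103411688 to 103450989, plus strand) lies 108410 bp from Ehf. It had 61.1, 30.8 and 48.8 CPM in Kit+ K5+ libraries and 117, 51.0 and 35.5 CPM in Kit+ K5- libraries. It had 19.3, 46.4 and 56.8 CPM in Kit- K5+ libraries, and 1.71, 8.43 and 13.4 CPM in Kit- K5- libraries. The Kit- K5- libraries were the lowest 3 of 12, and the highest value was that of Kit+ K5- replicate 1, the library with the high mast cell sum. Means were 46.9 ± 15.2, 68.0 ± 43.5, 40.8 ± 19.4 and 7.84 ± 5.86 CPM (SD, n = 3) in the same order of populations.

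Spdef (ENSMUSG00000024215.14; chromosome 17, 27714352 to 27728955, minus strand) had a higher mean level in both Kit+ populations than in both Kit- populations. It had 77.7, 40.3 and 8.01 CPM in Kit+ K5+ libraries and 55.4, 39.6 and 9.32 CPM in Kit+ K5- libraries. It had 4.88, 3.30 and 0.191 CPM in Kit- K5+ libraries, and 10.03, 1.84 and 0.510 CPM in Kit- K5- libraries. The low values rest on few reads: replicate 3 of Kit- K5+ had 1 count (exact 95% Poisson interval 0.00484 to 1.07 CPM) and replicate 3 of Kit- K5- had 5 counts (0.166 to 1.19 CPM), intervals that cover counting error only. The Kit+ K5+ libraries lay above all Kit- K5+ libraries, and Kit+ K5- overlapped Kit- K5- only through the 10.03 CPM of Kit- K5- replicate 1, which stood above the 9.32 CPM of Kit+ K5- replicate 3.

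Among Kit- cells, K5+ against K5- asked how the members differ with the keratin 5 reporter where Kit is absent. Elf3, Elf5 and Ehf rose in Kit- K5+ cells, while Spdef did not pass the test, and 3 of 4 members called higher stand against 7.38% of all genes called higher and 16.5% called in either direction. Elf3 was 3.38-fold higher (log2 difference 1.76 ± 0.33 SE, adjusted p = 0.00321, edgeR's quasi-likelihood test with Benjamini-Hochberg adjustment over all genes). Elf5 was 5.26-fold higher (2.39 ± 0.63, adjusted p = 0.0205) and Ehf was 3.44-fold higher (1.78 ± 0.49, adjusted p = 0.0243). The libraries of these 3 genes did not overlap, as was true of 37.1% of all genes in this comparison. Spdef differed by -0.54 ± 1.04 (adjusted p = 0.769), and without Kit- K5- replicate 1 its difference turned to 1.23. Within runs 1, 2 and 3 the log2 difference was 1.02, 2.28 and 1.75 for Elf3, 3.16, 2.39 and 2.05 for Elf5, and 0.78, 2.31 and 2.03 for Ehf. The call of Elf5 was lost on leaving out Kit- K5- replicate 1 (1.88, adjusted p = 0.0537), Kit- K5- replicate 2 (2.44, 0.0639), Kit- K5+ replicate 2 (2.26, 0.0549) or Kit- K5+ replicate 3 (2.07, 0.0610). The call of Ehf was lost without any 1 of these 4 libraries or without Kit- K5- replicate 3, at differences of 1.496 to 1.86 and adjusted p of 0.0520 to 0.0979. Leaving out no single library ended the call of Elf3.

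Set against the general epithelial genes, the 3 differences were smaller. Per 1000 CPM of the 18 genes, Elf3 averaged 12.8 ± 2.76 in Kit- K5+ cells and 12.3 ± 3.44 in Kit- K5- cells (SD, n = 3). Ehf averaged 234 ± 110 in Kit- K5+ cells and 214 ± 31.6 in Kit- K5- cells, and Elf5 averaged 26.1 ± 13.8 in Kit- K5+ cells and 15.4 ± 10.6 in Kit- K5- cells. With libraries scaled to these genes, the log2 difference was 0.06 for Elf3 (adjusted p = 0.897), 0.13 for Ehf (adjusted p = 0.783) and 0.76 for Elf5 (adjusted p = 0.233). Under this scaling the median of all genes moved to -1.65, and 1.15% of the calls were in the higher direction, against 44.8% under TMM. Relative to the same genes Spdef was lower in Kit- K5+ cells, by -2.32 on the log2 scale (adjusted p = 0.0319), with 1.68 ± 1.42 in Kit- K5+ cells and 8.62 ± 10.7 in Kit- K5- cells per 1000 CPM. That higher mean rests on Kit- K5- replicate 1, at 20.8. The part of RNA of mesenchyme or other cell types in the differences between Kit- K5+ and Kit- K5- cells was not tested.

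**Figure D2:**
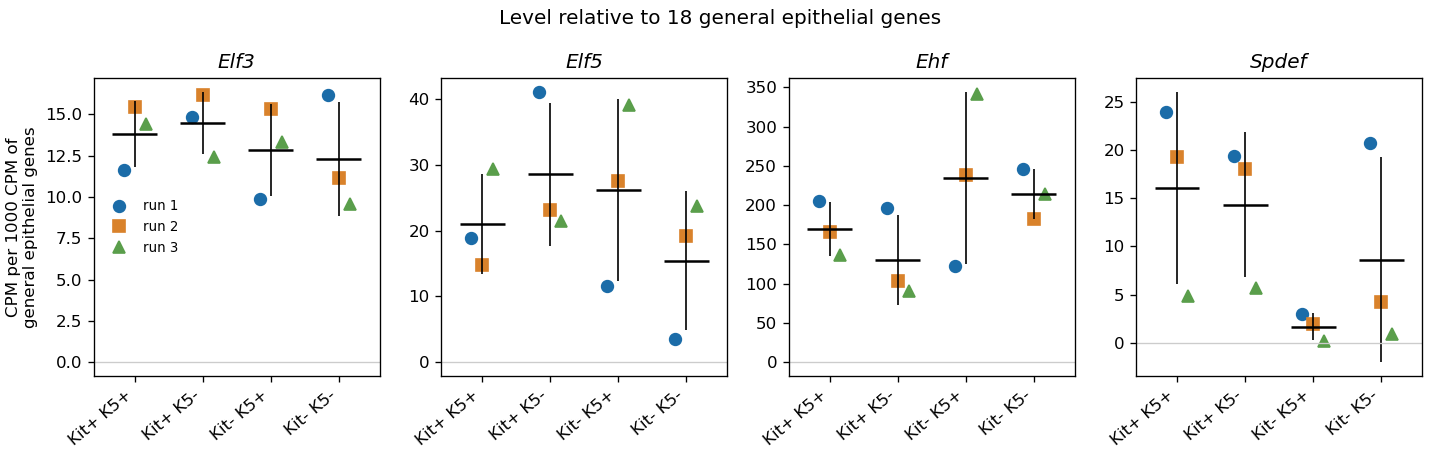
Level of each member per 1000 CPM of 18 general epithelial genes in every library, with the mean (bar) and SD (line) of 3 libraries per population and symbols for the runs. Elf3 averages 12.3 to 14.5 in the 4 populations, while Spdef averages 16.0 and 14.3 in Kit+ K5+ and Kit+ K5- cells, against 1.68 and 8.62 in Kit- K5+ and Kit- K5- cells.

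Kit+ against Kit- among K5- cells shares the Kit- K5- libraries with the comparison above. All 4 members rose in Kit+ K5- cells, against 10.2% of all genes called higher and 21.3% called in either direction. Elf3 was 5.42-fold higher (log2 difference 2.44 ± 0.34, adjusted p = 2.39e-04), Elf5 was 8.78-fold higher (3.13 ± 0.65, adjusted p = 0.00392) and Ehf was 2.93-fold higher (1.55 ± 0.48, adjusted p = 0.0352), by edgeR's quasi-likelihood test. The libraries did not overlap for these 3 genes or for 41.3% of all genes. Spdef was 8.24-fold higher (3.04 ± 1.03, adjusted p = 0.0490) with overlapping libraries, close to the threshold of 0.05. With the replicate block on runs its difference was 3.48 ± 0.40 (adjusted p = 4.42e-05), with 29.2% of all genes called. Within runs 1, 2 and 3 the differences were 2.37, 2.74 and 1.83 for Elf3, 5.74, 2.53 and 1.38 for Elf5, 2.24, 1.501 and 0.30 for Ehf, and 2.41, 4.10 and 3.28 for Spdef. All had the same sign.

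Single libraries bore on 2 of these 4 calls. Ehf differed by 0.83 (adjusted p = 0.185) without Kit+ K5- replicate 1, the library with the high mast cell sum, and its call was also lost without any 1 Kit- K5- library, at 1.37 to 1.64 and adjusted p of 0.0726 to 0.128. Spdef lost its call without any 1 of 7 libraries, which were Kit+ K5+ replicate 2, Kit+ K5- replicates 1 and 2, Kit- K5+ replicates 1 and 2 and Kit- K5- replicates 2 and 3, at 2.53 to 3.06 and adjusted p of 0.0548 to 0.159. Without Kit- K5- replicate 1 the difference of Spdef was 4.82 (adjusted p = 0.0150). Elf5 passed without any 1 library, at 2.49 (adjusted p = 0.0102) without Kit+ K5- replicate 1. Elf3 passed the test whichever library was left out.

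Relative to the general epithelial genes the direction of Ehf turned in this comparison. The scaled log2 difference was 0.23 for Elf3 (adjusted p = 0.586), 0.90 for Elf5 (adjusted p = 0.147), -0.72 for Ehf (adjusted p = 0.113) and 0.72 for Spdef (adjusted p = 0.436), while the median of all genes stood at -2.07. Per 1000 CPM of these genes Elf3 averaged 14.5 ± 1.88 in Kit+ K5- cells and 12.3 ± 3.44 in Kit- K5- cells. Ehf averaged 130.1 ± 57.5 in Kit+ K5- cells and 214 ± 31.6 in Kit- K5- cells. The part of other cell types was not tested here either.

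Among K5+ cells the mesenchymal markers summed to 231 to 450 CPM in Kit+ K5+ libraries and 295 to 373 CPM in Kit- K5+ libraries. Other sums were less alike. General epithelial genes summed to 1662 to 3235 CPM in Kit+ K5+ and 1451 to 1684 CPM in Kit- K5+ libraries. In the same order, basal duct markers summed to 799 to 1095 and 1225.5 to 2634 CPM, and luminal duct markers to 185 to 349 and 475 to 706 CPM. The part of these in the differences was not tested. Spdef averaged 42.0 ± 34.9 CPM in Kit+ K5+ cells and 2.79 ± 2.38 CPM in Kit- K5+ cells (SD, n = 3). It was 14.5-fold higher with libraries that did not overlap, but did not pass the test without a block (log2 difference 3.85 ± 1.09, adjusted p = 0.103). The replicate block on runs rests on a pairing read from these data, which was weakest between the K5+ populations (r of 0.108 to 0.156). With this block the difference of Spdef was 3.92 ± 0.43 (adjusted p = 8.02e-04), and within runs 1, 2 and 3 it was 3.86, 3.43 and 3.62. Without the block 0 of 4 members were called, against 0.658% of all genes called in either direction, and with it 1 of 4, against 4.63%. Libraries did not overlap for 20.5% of all genes. Scaled to the general epithelial genes, Spdef differed by 3.21 (adjusted p = 0.0710), and by 3.45 with the block as well (adjusted p = 0.00173).

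The other 3 members did not pass this comparison. Elf3 differed by 0.61 ± 0.32 (adjusted p = 0.334), Elf5 by 0.20 ± 0.59 (adjusted p = 0.893) and Ehf by 0.17 ± 0.47 (adjusted p = 0.889). For Ehf the runs went different ways, at 1.70, -0.22 and -1.13 in runs 1, 2 and 3, and for Elf5 they stood at 1.64, -0.59 and -0.22. Without run 1 the differences were -0.64 for Ehf and -0.36 for Elf5.

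**Figure D3:**
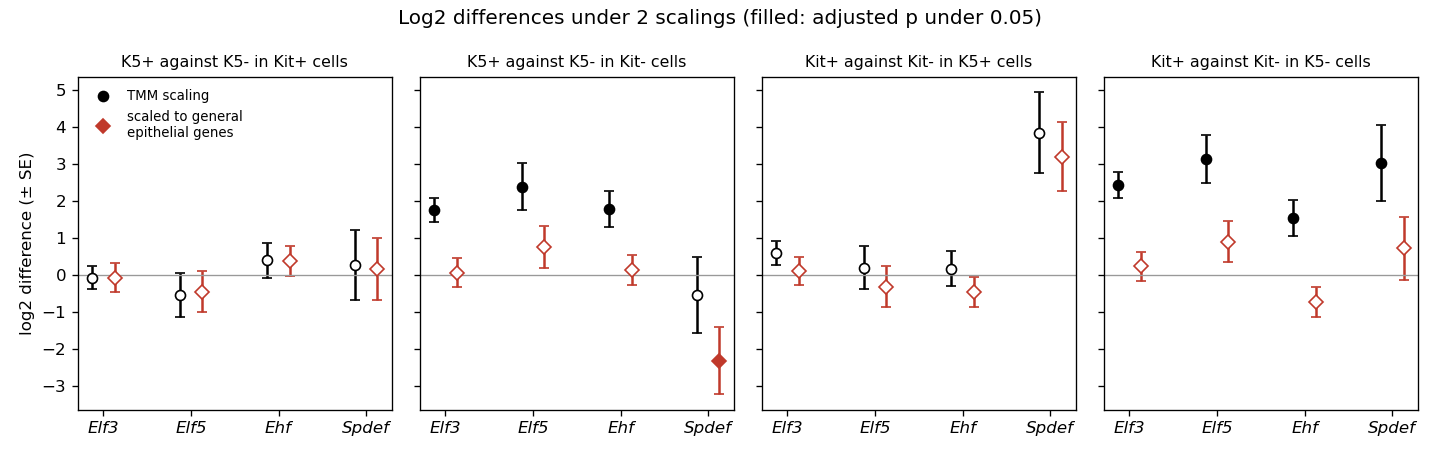
Log2 differences ± SE of the 4 members in the 4 pairwise comparisons, under TMM scaling (black circles) and with libraries scaled to 18 general epithelial genes (red diamonds). Filled symbols have an adjusted p under 0.05. The differences of Elf3 against Kit- K5- cells shrink to 0.06 and 0.23 under the second scaling, and that of Spdef for Kit in K5- cells shrinks too. Spdef for Kit in K5+ cells stays above 3, with an open symbol under both scalings.

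Among Kit+ cells no member passed the test for K5. The log2 difference of K5+ against K5- was -0.07 ± 0.32 for Elf3 (adjusted p = 0.982), -0.54 ± 0.59 for Elf5 (adjusted p = 0.894), 0.40 ± 0.47 for Ehf (adjusted p = 0.904) and 0.27 ± 0.94 for Spdef (adjusted p = 0.972). By edgeR's quasi-likelihood test 0 of 17030 genes were called in this comparison (0%), with 1161 at an unadjusted p under 0.05, 119 called by DESeq2 and 0 by limma-voom.

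Whether the K5 difference depended on Kit was tested by the interaction, the difference in Kit+ cells minus that in Kit- cells. For Elf3 it was -1.83 ± 0.46 (adjusted p = 0.0406, edgeR's quasi-likelihood test), 1 of 4 members called against 4.02% of all genes. It was -2.93 ± 0.86 for Elf5 (adjusted p = 0.0791), -1.38 ± 0.67 for Ehf (adjusted p = 0.289) and 0.81 ± 1.3999 for Spdef (adjusted p = 0.812). The call of Elf3 was lost on leaving out any 1 of 10 of the 12 libraries, with differences of -2.03 to -1.59 and adjusted p of 0.0504 to 0.122. Kit+ K5- replicate 3 and Kit- K5+ replicate 1 were the exceptions. Scaled to the general epithelial genes it was -0.13 (adjusted p = 0.863). With the replicate block the interaction of Elf5 was -3.01 (adjusted p = 0.0495, 8.33% of all genes called), given for comparison because the runs did not pair all 4 populations.

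Spdef was the one member that passed a test between runs, though differences between members were not tested. In each population its level was highest in run 1 and lowest in run 3, and the sum over the 4 populations was 148, 85.0 and 18.03 CPM in runs 1, 2 and 3. In the fit with the block, run 3 was 10.2-fold below run 1 (log2 difference -3.35 ± 0.37, adjusted p = 4.52e-04), while 2.31% of genes were called lower and 4.28% in either direction. Run 2 differed from run 1 by -1.10 ± 0.32 (adjusted p = 0.119), with 0.887% of genes called. Run 3 against run 1 gave -0.52 ± 0.24 for Elf3 (adjusted p = 0.239), 0.30 ± 0.55 for Elf5 (adjusted p = 0.809) and -0.60 ± 0.40 for Ehf (adjusted p = 0.413). Mitochondrial transcripts took a larger share of counts in run 3 than in run 1 in each population, at 30.9% against 22.5% in Kit+ K5+, 27.3% against 10.96% in Kit+ K5-, 29.1% against 24.2% in Kit- K5+ and 12.2% against 5.59% in Kit- K5- libraries, and the part of this in the difference was not tested. The labels do not say what a run is, so biological and technical differences between runs cannot be told apart.

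**Figure D4:**
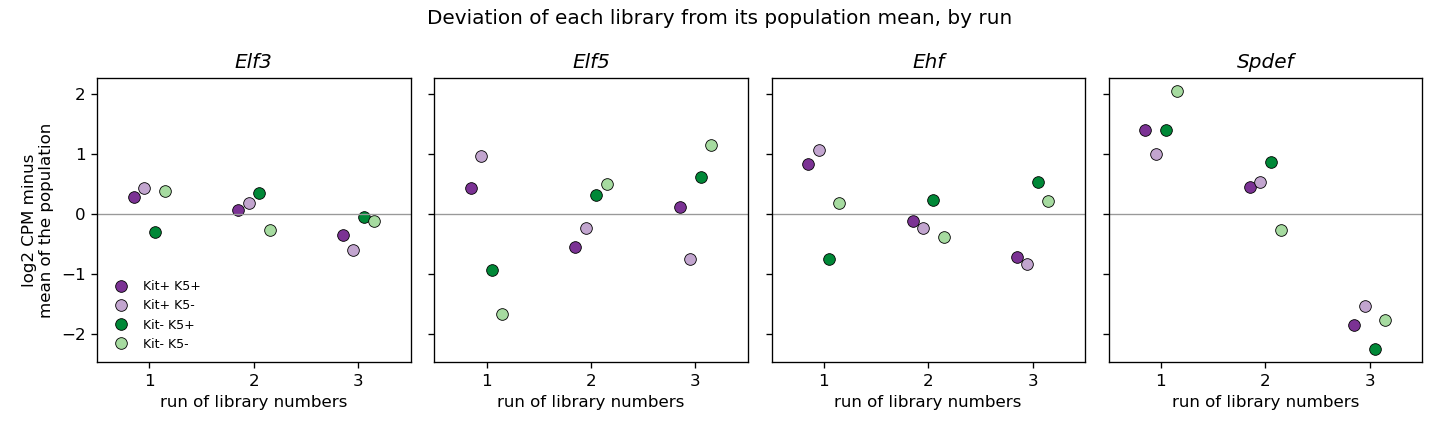
Deviation of each library from its population's mean, in log2 CPM, by run of library numbers, with colours for the 4 populations. All 4 Spdef libraries of run 1 lie above their population's mean and all 4 of run 3 lie below it. All 4 Elf3 libraries of run 3 also lie below it, by less. The Elf3, Ehf and Elf5 libraries of run 1 lie on both sides of it.

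Of 11 tested genes of the SPDEF mucous secretory programme, 4 fell in run 3 against run 1 and 0 rose, with 2.31% of all genes called lower and a median of -2.42 against -0.03 over all genes. Markers of some other cell types fell there too: 4 of 7 mast cell markers (median -3.53), 4 of 8 leukocyte and macrophage markers (-2.54), 2 of 5 erythroid markers (-1.63), 2 of 6 luminal duct markers (-0.54) and 5 of 18 general epithelial genes (-0.64), of which 1 other rose. No marker of mesenchyme (median -0.57), neurons (0.40), endothelium (0.14), Schwann cells and glia (0.05) or basal duct (0.85) was called in either direction. The mucous genes that fell were Muc19, a gel-forming salivary mucin (-4.63 ± 0.29, adjusted p = 4.47e-06), Creb3l4 (-2.42 ± 0.29, adjusted p = 9.69e-04), Creb3l1 (-2.65 ± 0.55, adjusted p = 0.0208) and Ern2 (-3.68 ± 0.80, adjusted p = 0.0237), named after their values were seen. In runs 1, 2 and 3 Muc19 stood at 139, 35.6 and 6.59 CPM in Kit+ K5+ cells, 204 (replicate 1), 39.9 and 11.4 CPM in Kit+ K5- cells, 74.4, 12.8 and 4.40 CPM in Kit- K5+ cells, and 179.9, 21.5 and 3.06 CPM in Kit- K5- cells. Its Kit+ and Kit- libraries overlapped among K5+ and among K5- cells. Of 8 acinar and end bud markers 4 fell in run 3 and 0 rose, with a median of -1.63. The summed level of these markers, which include Kit, was 1603, 1384 and 1067 CPM in Kit+ K5+ libraries, 5837, 1471 and 1122 CPM in Kit+ K5- libraries, 1191, 826 and 503 CPM in Kit- K5+ libraries, and 1880, 373 and 288 CPM in Kit- K5- libraries. The part of any of these lists in the difference of Spdef between runs was not tested.

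Between populations, 0 of 11 tested genes of the mucous programme rose and 2 fell in K5+ against K5- among Kit- cells. There 16.5% of all genes were called in either direction, so the count is near that of genes at large. The median was -0.46 against 0.04 over all genes. Xbp1, a secretory stress factor, fell by 1.15 on the log2 scale (adjusted p = 0.00751), and Creb3l1 fell by 3.30 (adjusted p = 0.0413). Creb3l1 stood at 24.7 ± 12.6 CPM in Kit- K5+ cells and 245 ± 52.5 CPM in Kit- K5- cells (SD, n = 3), the population rich in mesenchymal markers. In Kit+ against Kit- among K5+ cells 0 rose and 0 fell, with 0.658% of all genes called. Among K5- cells 0 rose and 1 fell, with 21.3% of all genes called. Tff3, Muc16 and Scgb1a1 of the list were under the filter on low counts.

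Of 8 tested genes linked to prolactin and ELF5 in the mammary gland, 2 rose and 0 fell in Kit+ against Kit- among K5- cells, where 21.3% of all genes were called, so the count is near that of genes at large. The median was 0.58 against 0.05 over all genes. Csn1s1, which encodes a casein, had 28.9, 48.0 and 31.0 CPM in Kit+ K5- libraries and 0.853, 3.29 and 0.715 CPM in Kit- K5- libraries (log2 difference 4.45 ± 0.60, adjusted p = 1.87e-04). It also rose in Kit+ against Kit- among K5+ cells (2.69 ± 0.53, adjusted p = 0.0407), with 122.8, 84.8 and 58.3 CPM in Kit+ K5+ libraries and 13.8, 21.7 and 5.55 CPM in Kit- K5+ libraries, whereas Elf5 did not pass there. Id2, an inhibitor of basic helix-loop-helix factors, rose by 1.33 ± 0.28 among K5- cells (adjusted p = 0.00470). Lalba, Csn2, Csn1s2a, Csn1s2b, Wap and Tnfsf11 of the list were under the filter.

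Of 10 tested genes reported as targets of ELF3 or EHF, 4 rose and 1 fell in Kit+ against Kit- among K5- cells. Of all genes 10.2% were called higher there and 21.3% in either direction. The median was 0.85 against 0.05 over all genes. Lcn2, an iron-binding secreted protein, had 146, 75.0 and 50.5 CPM in Kit+ K5- libraries and 8.20, 11.7 and 5.82 CPM in Kit- K5- libraries (log2 difference 3.39 ± 0.63, adjusted p = 0.00193). Grhl3, a grainyhead factor of barrier formation, rose by 2.53 ± 0.52 (adjusted p = 0.00401), and Cldn7, a tight junction protein, by 2.45 ± 0.54 (adjusted p = 0.00546). Grhl3 is also among the epithelial transcription factors below, and Cldn7 among the 18 general epithelial genes. Tgfbr2, a receptor for TGF-beta, fell by 2.19 on the log2 scale (adjusted p = 0.00387). In K5+ against K5- among Kit- cells 2 of the 10 rose and 0 fell. Of all genes 7.38% were called higher there and 16.5% in either direction.

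Of 14 other epithelial transcription factors, 10 were called in each comparison with Kit- K5- cells. Of all genes 16.5% were called for K5 among Kit- cells and 21.3% for Kit among K5- cells. In K5+ against K5- among Kit- cells 9 of 14 rose and 1 fell, with a median of 1.83 against 0.04 over all genes. The gene that fell was Klf4, with 34.2 ± 19.0 CPM in Kit- K5+ cells and 141.7 ± 49.3 CPM in Kit- K5- cells (SD, n = 3). Tfcp2l1, a factor of salivary ducts, rose by 2.95 ± 0.27 (adjusted p = 1.23e-05), Grhl2 by 2.10 ± 0.23 (adjusted p = 6.05e-05), Tfap2c by 2.94 ± 0.45 (adjusted p = 7.60e-04) and Tfap2a by 2.22 ± 0.35 (adjusted p = 9.05e-04). In Kit+ against Kit- among K5- cells 9 rose and 1, again Klf4, fell, and Tfcp2l1 was not among those that rose, with means of 64.8 CPM in Kit+ K5- cells and 57.8 CPM in Kit- K5- cells. Of 8 mesenchymal transcription factors, 0 rose and 7 fell in that comparison, with 21.3% of all genes called. Among them were Prrx1, which fell by 5.10 on the log2 scale (adjusted p = 5.25e-06), and Zeb1, which fell by 4.77 (adjusted p = 3.21e-05).

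Of 19 other ETS genes tested, 3 rose and 3 fell in Kit+ against Kit- among K5- cells, with 21.3% of all genes called and a median of 0.04 against 0.05. Etv6, a repressor, had 377, 400.3 and 334 CPM in Kit+ K5- libraries and 96.1, 132 and 148 CPM in Kit- K5- libraries (log2 difference 1.56 ± 0.20, adjusted p = 1.08e-04). Etv4, a target of FGF signalling, rose by 1.95 ± 0.36 (adjusted p = 0.00192). Elk3, known from endothelium and mesenchyme, fell by 1.65 (adjusted p = 0.00641), and Elf4, known from lymphoid cells, fell by 1.75 (adjusted p = 0.00727). In K5+ against K5- among Kit- cells 2 rose and 2 fell, where 16.5% of all genes were called, so both counts are near those of genes at large. Among K5+ cells 0 were called for Kit.

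Across the 12 libraries, Pearson's r of log2 CPM was 0.83 between Elf3 and Ehf, 0.81 between Elf3 and Elf5, 0.77 between Elf5 and Ehf and 0.67 between Elf3 and Spdef. It was 0.38 between Ehf and Spdef and 0.29 between Elf5 and Spdef. After the population means were taken out, r was 0.80 between Elf3 and Ehf, 0.10 between Elf3 and Elf5 and 0.51 between Elf5 and Ehf. With Spdef it was then 0.66 for Elf3, 0.27 for Ehf and -0.43 for Elf5. These values describe 12 libraries that share populations, runs and scaling.

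By the same measure the genes most like Elf3 among 8838 with a mean of at least 10 CPM were Ezr, which encodes the membrane linker ezrin (r = 0.986 over 12 libraries and 0.921 over the 9 other than Kit- K5-), Marveld3 (0.975 and 0.937), Enpp3, Etfa and Tjp3. Marveld3 and Tjp3, genes of tight junctions, are among the 18 general epithelial genes. Ezr had 275, 209 and 191 CPM in Kit+ K5+ libraries and 68.9, 50.0 and 64.1 CPM in Kit- K5- libraries. The genes most like Elf5 were Ppargc1a (0.955 and 0.716), Prkaa2, Alox12e, Map3k9 and Plekha7, and those most like Ehf were Myo1d (0.921 and 0.833), Mgat4a, Elovl7, Atp1b1 and Tgif1. Those most like Spdef were Nars (0.969 and 0.961), Atp2a3 (0.958 and 0.966), Ucp2, G6pdx and Padi2. Atp2a3, a calcium pump of the endoplasmic reticulum, had 456, 185 and 102 CPM in Kit+ K5+ libraries and 63.4, 46.4 and 15.1 CPM in Kit- K5+ libraries. Its lower level in run 3 than in run 1 is part of the likeness by which it was picked.

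Elf5 and Ehf are neighbours on chromosome 2, and the genes around them did not all move with them. Cat, which encodes catalase and ends 2860 bp from Elf5, differed by -0.06 in K5+ against K5- among Kit- cells (adjusted p = 0.892) and by -0.42 in Kit+ against Kit- among K5- cells. Abtb2, 115321 bp from Elf5, rose by 1.30 in the first of these (adjusted p = 0.0209) and by 1.23 in the second (adjusted p = 0.0210). Cd44, a hyaluronan receptor 361768 bp from Ehf, fell by 2.39 in K5+ against K5- among Kit- cells (adjusted p = 0.00358). Next to Elf3, Rnpep lies 4144 bp away and differed by 0.19 and 0.79 in the same 2 comparisons, and it passed neither. Other genes near Elf3 did pass edgeR's quasi-likelihood test. Shisa4, 112489 bp away, differed by -1.89 and -2.69 (adjusted p = 0.00409 and 3.12e-04). Lgr6, 148299 bp away, differed by 3.87 in the first comparison (adjusted p = 0.00571), and Timm17a, 36645 bp away, by 0.90 in the second (adjusted p = 0.00283).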

How the data were processed

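Total RNA of 12 sorted samples was sequenced as single reads of 50 nt. Per the labels' protocols, the authors mapped reads to GRCm38 with STAR 2.4.2a and deposited whole-number counts of reads per gene from featureCounts. Picard 1.129, featureCounts 1.4.6-p3 and the build GRCm38.p3 are named in the submitters' processing notes. No source used here gives the annotation release or the strand setting. Positions and exon lengths are from GENCODE M21 on GRCm38.

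The analysis used R 4.3.3 and edgeR 4.0.16: filterByExpr, TMM scaling and 1 quasi-likelihood fit of all 12 libraries (8 residual degrees of freedom, common biological coefficient of variation 0.437). Adjusted p-values are Benjamini-Hochberg over 17030 genes, with a threshold of 0.05. The SE of a log2 difference was not estimated directly: it is the size of the difference divided by the square root of the F statistic of its test. Values within runs are of log2(CPM + 0.5). The fit was tested on simulated data. The members, gene lists and runs were chosen with earlier results of these data known. Named list genes were up to 4 past the threshold in the comparison with the most calls (smallest p first), written out in part. For the runs, chosen after seeing the data, all that passed in the mucous list were named. Alternatives were DESeq2 1.42.0, limma-voom (limma 3.58.1), other scalings and filters, thinning, a block on runs and leaving out libraries or runs.

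The pairing comes from the data: for libraries of 1 run in the 2 populations compared, deviations from the population means correlated over genes. The lowest and highest of 3 pairs were 0.263 and 0.369 between the Kit+ populations, 0.153 and 0.207 between the Kit- populations, 0.108 and 0.156 between the K5+ populations, and 0.299 and 0.408 between the K5- populations, all over 0.1. For the interaction the lowest of 18 was 0.0928.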

Additional observations from a re-analysis of the deposited data

Results flagged for a closer look

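The K5 difference of Elf3 in Kit+ cells minus that in Kit- cells was -1.83 on the log2 scale and passed the test of the difference itself (edgeR's quasi-likelihood test, adjusted p = 0.0406). The K5 difference was -0.07 in Kit+ cells and 1.76 in Kit- cells. The call was lost without any 1 of 10 of the 12 libraries, at -2.03 to -1.59, and the difference was -0.13 (adjusted p = 0.863) with libraries scaled to the general epithelial genes. With the replicate block on runs it was -1.83 (adjusted p = 0.0134), given for comparison only, since the runs did not pair all 4 populations.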

How the results depend on the processing

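Scaling to the 18 general epithelial genes is called epithelial scaling here. The number of genes called, with that of the report in brackets, moved as follows, and the cause was not tested. For K5 in Kit+ cells (0) DESeq2 called 119, no filter 318, epithelial scaling 42, the replicate block 54, and block with epithelial scaling 95. For K5 in Kit- cells (2806) epithelial scaling gave 11141, and with the block 12079. For Kit in K5+ cells (112) DESeq2 gave 1039, limma-voom 58, total counts alone 69, epithelial scaling 278, no filter 1212, the compared populations alone 72, the block 788, and both 1018. For Kit in K5- cells (3624) epithelial scaling gave 12766, and with the block 13453. For the interaction (684) DESeq2 gave 1411, epithelial scaling 7459, no filter 1960, the block 1418, and both 8863. Total counts alone moved the higher share of calls to 27.4%, against 44.8%, for K5 in Kit- cells. For Kit in K5+ cells (50.9%) upper-quartile scaling moved it to 35.4%, DESeq2 to 37.3%, no filter to 38.6% and the compared populations alone to 37.5%. For the interaction (69.9%) no filter moved it to 46.8%, DESeq2 to 56.9%, the block to 58.1% and upper-quartile scaling to 58.5%. Epithelial scaling left 1.15%, 3.597%, 0.282% and 98.3% higher in the last 4 comparisons. Under epithelial scaling the median of all genes stood at -0.06, -1.65, -0.50, -2.07 and 1.58 in the 5 comparisons in this order.

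Of the values of members under alternatives that changed 1 choice, 408 kept direction and side of the threshold, 55 lost the call, 10 gained one and 23 turned. For K5 in Kit- cells, Ehf lost its call with total counts alone (1.53). Under epithelial scaling Elf3, Elf5 and Ehf lost theirs (0.060, 0.76 and 0.13) and Spdef gained one (-2.32), and with the block they stood at 0.051, 0.79, 0.17 and -2.12. For Kit in K5+ cells, Spdef passed with DESeq2 (3.86), no filter (3.94), the replicate block (3.92) and the block with epithelial scaling (3.45). Elf5 turned to -0.31 and Ehf to -0.47 under epithelial scaling, to -0.23 and -0.51 with the block as well, and Ehf to -0.028 with the block alone. For Kit in K5- cells, Spdef lost its call with limma-voom (3.52) and total counts (3.06), and Ehf with total counts (1.58). Under epithelial scaling Elf3, Elf5 and Spdef lost theirs (0.23, 0.90 and 0.72) and Ehf turned to -0.72. With the block Elf3 stood at 0.22 and Ehf at -0.74. For the interaction, Elf3 lost its call with limma-voom (-1.78), total counts (-1.80) and epithelial scaling (-0.13; -0.12 with the block). Elf5 passed with DESeq2 (-2.93), no filter (-2.84) and the block (-3.01). Ehf passed with no filter (-1.28) and turned to 0.25 under epithelial scaling (0.23 with the block), where Spdef passed with the block (2.15). The block changed no other call of a member.

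Leaving out 1 library or 1 run gave these ranges. For K5 in Kit+ cells, Elf3 ran from -0.32 to 0.15, Elf5 -0.88 to 0.11, Ehf -0.12 to 1.12, Spdef -0.52 to 0.77, and 0 to 4 genes were called. For K5 in Kit- cells, Elf3 ran from 1.404 to 2.13, Elf5 1.88 to 2.99, Ehf 1.496 to 2.16, Spdef -1.19 to 1.23, and the calls 548 to 3157. For Kit in K5+ cells, Elf3 ran from 0.33 to 0.84, Elf5 -0.36 to 0.56, Ehf -0.64 to 0.76, Spdef 3.09 to 4.50, and the calls 1 to 240. For Kit in K5- cells, Elf3 ran from 2.21 to 2.70, Elf5 2.02 to 4.08, Ehf 0.83 to 2.01, Spdef 2.53 to 4.82, and the calls 851 to 3754. For the interaction, Elf3 ran from -2.15 to -1.43, Elf5 -3.58 to -2.27, Ehf -1.88 to -0.64, Spdef -0.94 to 1.47, and the calls 87 to 729. Leaving out a run ended calls as well, in fits with 4 residual degrees of freedom. For K5 in Kit- cells, Elf3 lost its call without run 2 (adjusted p = 0.136). Elf5 and Ehf lost theirs there without run 2 or run 3. For Kit in K5- cells, Elf5 (adjusted p = 0.0845) and Spdef lost their calls without run 2, and Ehf without run 1 or run 2. The call of Elf3 for the interaction was lost without run 1, run 2 or run 3. Low counts limit Spdef in Kit- cells, where run 3 held 1 and 5 counts.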
